A study of Mus musculus with 6 samples.

Results

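The hedgehog pathway genes described here are 9 genes of the deposited table, found by exact gene symbol: Ptch1, Hhip, Gas1, Boc, Smo, Sufu, Gli1, Gli2 and Gli3. Each symbol matched 1 of the 52636 rows. The series holds 6 RNA sequencing libraries of the murine colon cancer line MC38, each from its derivative M1E5 and each with the treatment label none. The group WT has the genotype M1E5 WT (3 libraries). The group Zfx F5 has the genotype M1E5 Zfx F5 (3 libraries), in which the zinc finger factor gene Zfx was targeted by lipid transfection of CRISPR ribonucleoprotein. F5 is the only edited line among these samples, so a difference tied to the edit and one tied to that line cannot be told apart. The comparison asks how the pathway genes differ in the Zfx-targeted cells.

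Hedgehog ligands bind the receptor Patched, which in their absence holds the membrane protein Smoothened inactive. Once released, Smoothened acts at the primary cilium to free the GLI transcription factors from SUFU, and the GLI factors then switch on target genes, among them Gli1, Ptch1 and Hhip themselves. In the gut, ligands made by the epithelium act mainly on the mesenchyme beneath it. Zfx has been described in mice as a factor that hedgehog-driven tumours need.

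Reads per library numbered 18876673 to 24241864. Values are given as CPM, reads scaled to 1000000 per library, or as CPM per kilobase of exon where genes are compared with each other. The libraries labelled Zfx F5 had more Zfx mRNA, 125, 129 and 122 CPM against 64.4, 69.7 and 68.9 CPM in WT, so the gene's level did not check the label, and gene-level values do not show an edit inside the gene. Zfx F5 is used below as a label, and every direction rests on it. The label names a colon tumour, but the epithelial marker genes were near 0. Epcam, Krt19, Krt20, Cldn3, Cldn4, Cldn7 and Muc2 had 0 reads in all 6 libraries, and only Cdh1 of 16 markers passed the filter on low values. Cdh1 was low but higher in Zfx F5, with means of 0.848 CPM in WT and 2.10 CPM in Zfx F5. Krt8 had 0 pooled reads in WT and 114 in Zfx F5, while Elf3 had 11 and 4. Most genes differed. The filter, a mean log2 value of at least 0, kept 12279 genes. Of these, 72.9% passed limma at an adjusted p of 0.05: in Zfx F5 37% were higher and 35.9% lower. In all, 74.3% had groups that did not overlap. At least 2-fold differences were found for 10.1%.

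Of the 9 genes, 6 were kept, and all 6 passed limma (2 higher and 4 lower), beside the 72.9% of all kept genes that passed. Their 3 libraries per group did not overlap in any of the 6 cases, beside 74.3% of all kept genes. Gas1 and Gli1 rose, Smo and Sufu fell, Ptch1 fell slightly, and Gli3 passed by a small margin that several alternatives removed. Hhip, Boc and Gli2 were at or near 0 and were not tested. At least 2-fold differences were seen for 2 of the 6, Gas1 and Smo, beside 10.1% of all kept genes. In bulk RNA, fewer cells of a type and less RNA per cell cannot be told apart.

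**Figure D1:**
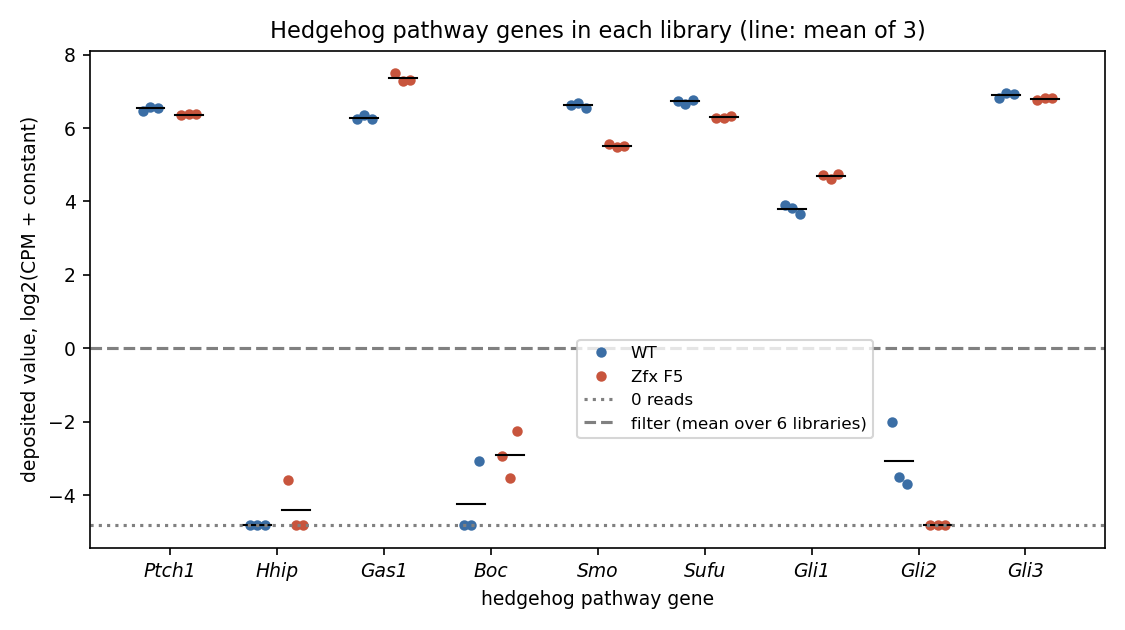
Deposited log2 values of the 9 hedgehog pathway genes, 1 point per library, with WT in blue, Zfx F5 in red and a line at each mean of 3. Gas1 and Gli1 are higher in Zfx F5, Smo and Sufu are lower, and Hhip, Boc and Gli2 lie near the dotted line of 0 reads, below the dashed filter.

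Among the ligand genes, none of the 3 hedgehog ligands was abundant. Shh had 0 reads in all 6 libraries, for which the 95% upper counting limit is about 3 reads, or 0.124 to 0.159 CPM, in a library. Ihh had 2 reads in the pooled WT libraries and 5 in the pooled Zfx F5 libraries. Dhh, the third ligand gene, measured 2.01, 2.28 and 2.31 CPM in WT and 0.849, 1.32 and 1.19 CPM in the libraries labelled Zfx F5. It fell 1.97-fold (log2 difference -0.98, SE 0.224, limma adjusted p = 2.72e-04). Hhat encodes the acyltransferase that adds palmitate to the ligands. It fell 5.16-fold, from 407 to 75 reads over 3 libraries (log2 difference -2.37, SE 0.181, limma adjusted p = 4.88e-13). With 1 CPM added before the log2, the differences of these low genes were smaller, -0.60 for Dhh and -1.72 for Hhat. Of the 9 genes for ligands and their release 3 were kept. In limma 2 of them fell (66.7%, beside 35.9% of all kept genes) and 1 did not pass. The share that passed was 66.7%, beside 72.9% of all kept genes.

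Ptch1 encodes the ligand receptor and is at the same time a target of the pathway. It lies on the minus strand of mm10 chromosome 13, from 63508328 to 63573598. Its level was 88.1, 96.0 and 94.0 CPM in WT and 81.2, 82.8 and 83.1 CPM in the libraries labelled Zfx F5. All 3 values of the second group lay below the lowest WT value, by a small margin. The fall was 1.12-fold (log2 means 6.53 ± 0.06 and 6.36 ± 0.02, SD, n = 3; difference -0.17, SE 0.042, limma adjusted p = 6.37e-04). With quantile normalization the difference was -0.09 (limma adjusted p = 0.0485).

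Hhip encodes a membrane protein that binds and sequesters the ligands, and it is among the genes that the pathway induces in many tissues. It lies on the minus strand of chromosome 8, from 79965851 to 80058006. It had 0 reads in 5 libraries and 1 read in Zfx F5 replicate 1.

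Gas1 encodes a membrane-anchored co-receptor that helps Patched bind the ligand, and it was named for its rise in growth-arrested fibroblasts. It has a single exon on the minus strand of chromosome 13, from 60174405 to 60177365. It measured 75.8, 82.2 and 75.4 CPM in WT and 180, 155 and 160 CPM in the libraries labelled Zfx F5. The lowest value of the second group was well above the highest WT value. Gas1 rose 2.12-fold (log2 means 6.28 ± 0.07 and 7.36 ± 0.11, SD, n = 3; difference 1.08, SE 0.050, limma adjusted p = 4.27e-14). An antisense gene model, Gm48488, shares 589 bases with the Gas1 exon. It had 9 pooled reads in WT and 22 in Zfx F5, against 5148 and 10514 for Gas1.

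Boc and Cdon encode related immunoglobulin-type co-receptors. Boc, on the minus strand of chromosome 16 from 44485049 to 44558897, had 0, 0 and 2 reads in WT and 2, 1 and 4 in the libraries labelled Zfx F5. The groups overlapped, and the ratio of pooled CPM was 3.65 with an exact 95% counting interval of 0.695 to 36.0, which includes 1. Cdon, from the wider list of receptors, measured 3.68, 2.60 and 4.04 CPM in WT and 14.1, 16.4 and 15.1 CPM in the libraries labelled Zfx F5. Like Gas1 it rose, by 4.45-fold (log2 difference 2.15, SE 0.133, limma adjusted p = 6.02e-13). The level of Gas1 plus Boc per kilobase, divided by that of Ptch1, was 2.26, 2.25 and 2.11 in WT and 5.84, 4.94 and 5.07 in the libraries labelled Zfx F5. The groups did not overlap. The means were 2.21 ± 0.08 and 5.28 ± 0.49 (SD, n = 3), a 2.39-fold difference with a 2-sided exact permutation p of 0.1, the smallest that 3 against 3 libraries allow. Since Boc was near 0, this ratio is almost wholly that of Gas1 to Ptch1.

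Smo encodes Smoothened, the signal transducer that Patched restrains. It lies on the plus strand of chromosome 6, from 29735503 to 29761365. Its level was 99.2, 103 and 92.8 CPM in WT and 46.9, 44.6 and 45.8 CPM in the libraries labelled Zfx F5. Every value of the second group lay far below every WT value. Smo fell 2.14-fold (log2 means 6.62 ± 0.07 and 5.52 ± 0.04, SD, n = 3; difference -1.10, SE 0.046, limma adjusted p = 1.89e-19). Of 6 kept genes in the list of other receptors and co-receptors, Cdon rose (16.7%, beside 37% of all kept genes). In the same list 4 fell (66.7%, beside 35.9%) and 1 did not pass. The share that passed was 83.3%, beside 72.9% of all kept genes. Among the 4 that fell were Evc and Iqce, which belong to the ciliary complex through which Smoothened signals. Evc fell 1.81-fold, from a mean of 24.5 to 13.5 CPM, and Iqce 1.59-fold, from 31.3 to 19.7 CPM.

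The upstream sequences of Smo and Gas1 are shown because these were the 2 genes with at least 2-fold differences, in opposite directions. They are the 250 bases before the gene start in RefSeq on build GRCm38.p6, 5′ to 3′ on the gene's own strand. Capitals mark GGCCT on either strand, where AGGCC is its reverse complement. GGCCT is part of AGGCCT, the core of the motif described for ZFX.
Smo, chr6:29735247-29735496, plus strand: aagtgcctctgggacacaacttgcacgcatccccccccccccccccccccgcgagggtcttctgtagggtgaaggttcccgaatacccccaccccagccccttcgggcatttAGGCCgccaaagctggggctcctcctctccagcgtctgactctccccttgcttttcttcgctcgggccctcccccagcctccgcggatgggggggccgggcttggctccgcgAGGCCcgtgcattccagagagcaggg
Gas1, chr13:60177536-60177785, minus strand: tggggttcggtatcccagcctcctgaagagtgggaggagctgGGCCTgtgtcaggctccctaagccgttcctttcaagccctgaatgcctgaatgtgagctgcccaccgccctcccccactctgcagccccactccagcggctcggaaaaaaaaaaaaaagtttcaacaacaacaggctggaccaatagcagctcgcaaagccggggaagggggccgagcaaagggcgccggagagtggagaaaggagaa
Smo held 2 matches to GGCCT, which begin 138 and 26 bases before the start, and Gas1 held 1, which begins 208 bases before it. RefSeq sequences were matched for 7 of the 9 genes, Smo, Sufu, Hhip, Gas1, Gli2, Gli3 and Ptch1. Those of Ptch1 (63565736 to 63565985) and Gli3 (15463473 to 15463722) lie inside the gene spans given here. They thus precede a start within the span, and the bases before its outer end were not searched. That of Gas1 precedes a RefSeq start outside the span given here, which ends at 60177365. The bases from there to 60177536 were not searched, and the Gas1 distance counts from the RefSeq start. Those of Smo and Hhip stop a few bases short of their spans. GGCCT was found in 4 of these 7 (Smo, Sufu, Hhip and Gas1) and in 44.5% of all 32851 sequences of this length. The full AGGCCT, which contains GGCCT, was in 0 of the 7 and in 8.70% of all. GACCACCCA, the consensus bound by GLI proteins, was in 0 of the 7 and in 0.225% of all. Both strands were searched. A match is a string of letters and not a measured binding site.

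Sufu encodes the cytoplasmic inhibitor that binds the GLI proteins. It lies on the plus strand of chromosome 19, from 46396896 to 46488804. It measured 107, 101 and 109 CPM in WT and 77.9, 77.4 and 80.1 CPM in the libraries labelled Zfx F5. The groups were clearly apart. Sufu fell 1.35-fold (log2 means 6.73 ± 0.06 and 6.29 ± 0.03, SD, n = 3; difference -0.43, SE 0.041, limma adjusted p = 7.24e-11).

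The GLI genes encode the zinc finger factors at the end of the pathway. GLI1 acts as an activator, GLI2 mainly as an activator and GLI3 mainly, once cleaved, as a repressor. Gli1, on the minus strand of chromosome 10 from 127329882 to 127341974, measured 14.8, 14.0 and 12.6 CPM in WT and 26.1, 24.3 and 26.8 CPM in the libraries labelled Zfx F5. No library of either group came near the other group. Gli1 rose 1.87-fold (log2 means 3.79 ± 0.12 and 4.69 ± 0.07, SD, n = 3; difference 0.90, SE 0.075, limma adjusted p = 3.28e-12). Gli1 and Ptch1, both known as direct targets of the pathway, thus differed in opposite directions. The neighbouring gene Arhgap9 on the other strand shares 62 exon bases with Gli1, or 1.53% of the Gli1 exon length. Arhgap9, named after its values were seen, had 11 pooled reads in WT and 132 in Zfx F5, against 916 and 1645 for Gli1. The other overlapping model, Gm47200, had 0 reads.

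Gli2, on the minus strand of chromosome 1 from 118834132 to 119053619, had 5, 1 and 1 reads in WT and 0 in each library labelled Zfx F5. These are 7 reads in all, 5 of them from WT replicate 1, and no fold is given. Gli3 lies on the plus strand of chromosome 13, from 15463235 to 15730026. It measured 113.5, 123.4 and 121.4 CPM in WT and 108.3, 113.5 and 113.4 CPM in the libraries labelled Zfx F5. The lowest WT value and the highest of the other group nearly met, at 6.828 and 6.827 on the log2 scale. The difference was -0.10 (SE 0.040, limma adjusted p = 0.0331). This call was lost with median centring (limma adjusted p = 0.139), quantile normalization (0.945), no trend or robust moderation (0.112) and no filter (0.0542). It was also lost without WT replicate 2 (0.158), WT replicate 3 (0.0797) or Zfx F5 replicate 1 (0.163). Per kilobase, Gli1 made up 21.1%, 18.9% and 17.5% of the summed level of the 3 GLI genes in WT and 33.1%, 30.6% and 32.7% in the libraries labelled Zfx F5. The groups did not overlap. The means were 19.2% ± 1.79 and 32.1% ± 1.37 (SD, n = 3), with a 2-sided exact permutation p of 0.1, the smallest possible.

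**Figure D2:**
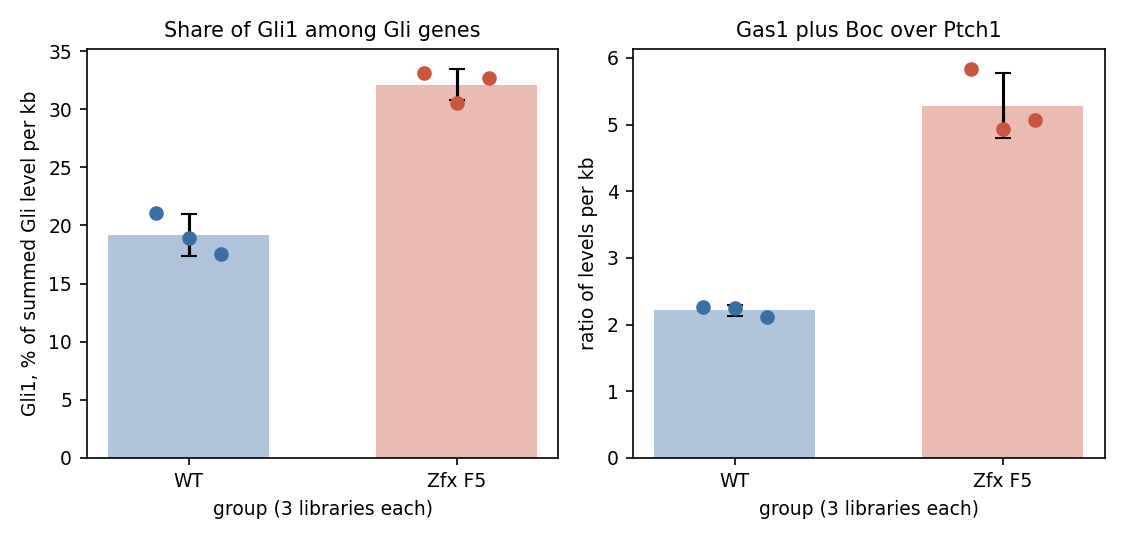
Left, Gli1 as a percentage of the summed level per kilobase of Gli1, Gli2 and Gli3. Right, Gas1 plus Boc divided by Ptch1, per kilobase. Bars are means of 3 libraries, whiskers SD and points single libraries. Both measures are higher in all 3 Zfx F5 libraries than in any WT library.

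The order of the 9 genes by level per kilobase changed between the groups. In WT, Gas1 (26.3 ± 1.29 CPM per kilobase, SD, n = 3) and Smo (26.0 ± 1.31) led and overlapped in range. Sufu (15.9 ± 0.62), Gli3 (14.3 ± 0.63), Ptch1 (11.9 ± 0.53) and Gli1 (3.40 ± 0.28) followed with ranges that did not overlap. In the libraries labelled Zfx F5, Gas1 led alone at 55.7 ± 4.42 CPM per kilobase. Gli3 (13.4 ± 0.36) came next, followed by Smo (12.1 ± 0.31) and Sufu (11.8 ± 0.21), whose ranges overlapped. Ptch1 (10.6 ± 0.13) and Gli1 (6.35 ± 0.32) came after them. In both groups Gli2, Boc and Hhip were below 0.04 CPM per kilobase in every library and cannot be ordered at this depth.

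**Figure D3:**
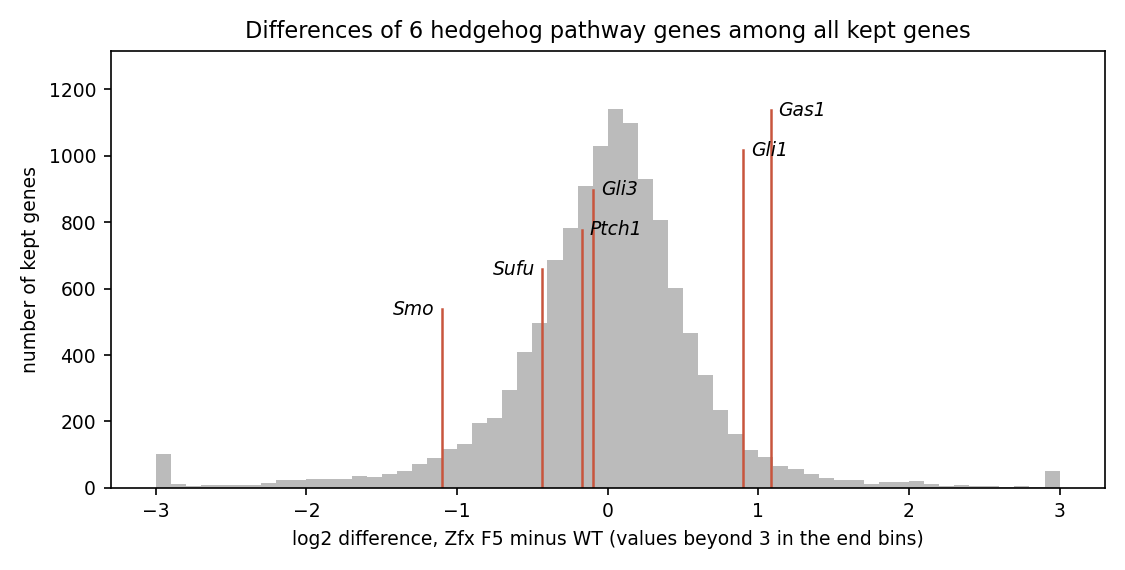
Histogram of the log2 difference (Zfx F5 minus WT) of 12279 kept genes in bins of 0.1, with red lines at the 6 kept hedgehog pathway genes; line heights only separate the names. Gli3 and Ptch1 lie near the centre, while Gas1, Gli1 and Smo lie towards the tails.

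The other genes of the pathway were taken from 5 lists with 86 symbols, of which 68 were kept. In limma 18 rose (26.5%, beside 37% of all kept genes), 40 fell (58.8%, beside 35.9%) and 10 did not pass. The 58 that passed are 85.3% of the kept ones, beside 72.9% of all kept genes. The median log2 difference of the 68 was -0.26, beside 0.02 over all kept genes. At least 2-fold differences were found for 9 of the 68, beside 10.1% of all kept genes. The median of the 6 kept genes described above was -0.13.

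Cytoplasmic regulators moved both ways. Of 20 kept, 6 rose (30.0%, beside 37% of all kept genes) and 11 fell (55.0%, beside 35.9%), with a median log2 difference of -0.15. Stk36, a kinase related to Drosophila Fused, fell from 7.02, 6.36 and 5.45 CPM to 2.41, 1.72 and 1.36 CPM (3.45-fold, limma adjusted p = 5.66e-10). Gpr161, a ciliary receptor that holds the pathway off through cAMP, fell from 110, 107 and 109 CPM to 52.7, 47.9 and 55.7 CPM (2.09-fold, limma adjusted p = 2.50e-18). Kif7, the ciliary kinesin that binds GLI proteins, rose from 13.4, 13.1 and 13.3 CPM to 27.4, 24.3 and 26.8 CPM (1.97-fold, limma adjusted p = 1.74e-13). These 3 were named on the condition that their groups did not overlap.

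All 22 cilium genes of the list were kept, of which 8 rose (36.4%, beside 37% of all kept genes), 11 fell (50.0%, beside 35.9%) and 3 did not pass, with a median log2 difference of -0.20. Tctn1, which encodes a protein of the ciliary transition zone, fell from 13.4, 13.0 and 12.3 CPM to 3.02, 3.29 and 2.59 CPM (4.31-fold, limma adjusted p = 2.71e-16). Ift81, which encodes an intraflagellar transport subunit, fell from 45.8, 45.3 and 49.5 CPM to 9.48, 11.1 and 12.3 CPM (4.28-fold, limma adjusted p = 1.55e-18). Rpgrip1l, another transition zone gene, fell 2.00-fold from a mean of 11.9 to 5.91 CPM (limma adjusted p = 5.91e-10). The largest rise in the list, named after its values were seen, was that of the transport gene Ift172, with means of 22.7 and 43.1 CPM.

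Genes reported as hedgehog targets in other tissues mostly fell. Of 26, 17 were kept, of which 12 fell (70.6%, beside 35.9% of all kept genes), 3 rose (17.6%, beside 37%) and 2 did not pass, with a median log2 difference of -0.39. Only 2 of the 17 differed at least 2-fold, beside 10.1% of all kept genes. Grem1, which encodes a BMP antagonist, fell from 399, 401 and 410 CPM to 25.1, 24.4 and 25.2 CPM (16.2-fold, limma adjusted p = 1.03e-35). Sox9, a transcription factor gene, fell from 282, 293 and 275 CPM to 131, 122 and 134 CPM (2.20-fold, limma adjusted p = 6.21e-22). Tgfb2, a growth factor gene, fell 1.84-fold from a mean of 1.82 to 0.971 CPM (limma adjusted p = 0.00115; log2 difference -0.88, or -0.51 with 1 CPM added). The forkhead genes Foxf1, Foxf2 and Foxl1, targets of the pathway in gut mesenchyme, were named after their values were seen. Foxf1 fell from a mean of 81.8 to 56.4 CPM, Foxf2 from 20.6 to 12.7 CPM and Foxl1 from 29.3 to 25.7 CPM. The 3 that rose, also named after their values were seen, were Osr1 (200.1 to 300 CPM), Snai1 (47.3 to 70.8 CPM) and Ccnd2 (550 to 741 CPM).

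**Figure D4:**
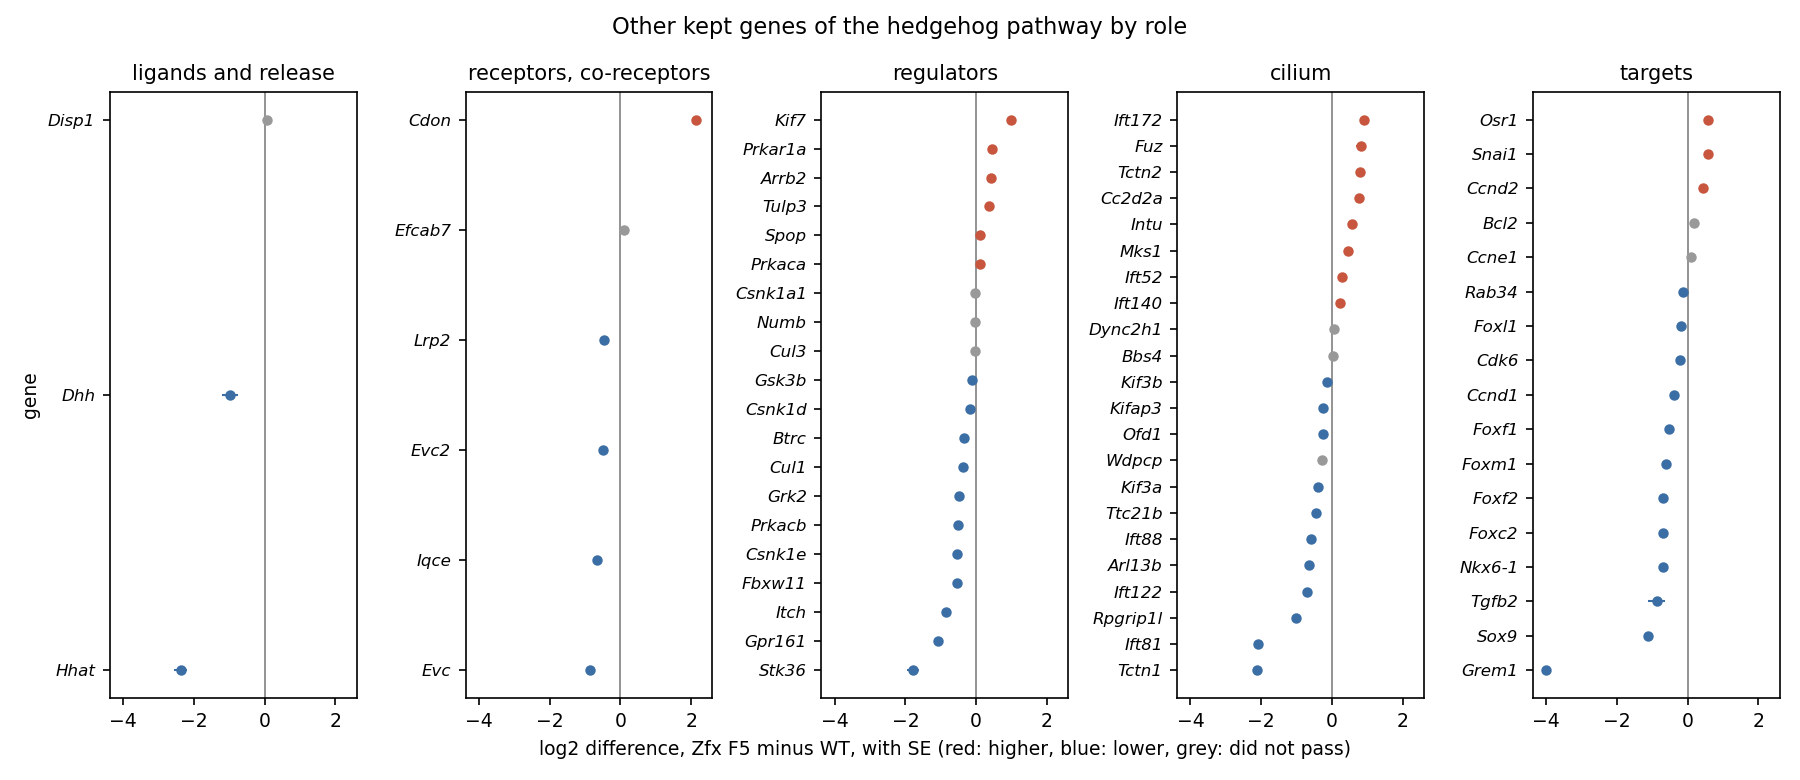
Log2 difference (Zfx F5 minus WT) with SE for the 68 other kept pathway genes, in 5 panels by role, with genes that rose in red, genes that fell in blue and genes that did not pass in grey. Cdon (2.15) is the highest and Grem1 (-4.02) the lowest, and 12 of 17 targets are blue.

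Markers of other cell types were counted beside these results. The background for their calls is 37% of all kept genes higher and 35.9% lower. Of 11 fibroblast markers 6 were kept, 3 higher and 3 lower, and their summed level was 1254 to 1287 CPM in WT and 3426 to 3553 CPM in the libraries labelled Zfx F5. That rise was Col3a1 (874 to 3335 CPM). Without it the sum was lower in Zfx F5, at 165 to 168 CPM against 392 to 402 CPM in WT. Most of this remainder was Pdgfra (246.9 to 78.6 CPM) and Dcn (120 to 33.9 CPM), and Dpt also fell (2.22 to 1.08 CPM). Pdgfrb (26.1 to 43.6 CPM) and Pi16 (0.503 to 3.93 CPM) rose. Col1a1 (0.188 to 0.942 CPM) and Col1a2 (0.088 to 3.91 CPM) were also higher but were not tested, while Lum was lower and near 0. Thy1, a fibroblast marker, had 0 reads. The summed level of 11 endothelial markers was 13.5 to 14.7 CPM and 34.2 to 39.7 CPM, with Kdr, Tek, Emcn and Cldn5 at 0. The 2 kept, Pecam1 and Egfl7, were both higher. Most of the rise was Pecam1 (8.79 to 26.1 CPM), and without it the sum was 4.99 to 5.93 CPM and 10.07 to 11.75 CPM. The summed level of the 12 myeloid markers was 12.1 to 14.9 CPM and 27.6 to 30.3 CPM. Of its 4 kept genes 2 were higher, and Adgre1, Tyrobp and S100a9 were at 0. Nearly all of that rise was Lyz2, and without it the sum was 11.5 to 14.4 CPM and 13.2 to 14.9 CPM. The 16 epithelial markers summed to 0.848 to 1.24 CPM and 4.15 to 4.40 CPM, and the 10 T and NK cell markers to 0 CPM and 0.101 to 0.189 CPM, with 7 of them at 0. Their part in the rise of Gas1, Cdon and Gli1 was not tested.

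The kept genes most like Smo and Gas1 over the 6 libraries were found among 10789 others with a name of their own, by Euclidean distance of log2 values centred on each gene's mean. For Smo they were Dab2ip (distance 0.0664, log2 difference -1.10), Stat5b (0.0902, -1.09) and Selenom (0.0909, -1.10). For Gas1 they were Tstd3 (0.101, 1.05), Dtx3l (0.109, 1.11) and Arl4c (0.128, 1.12). None of these is in the pathway lists, which hold only a small part of the 10789 genes. The distance itself selects genes with a like log2 difference, so no link to the pathway can be read from it.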

How the data were processed

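The samples are 6 libraries of cultured MC38 cells, 3 per genotype label. Per the labels' protocols the libraries were made with Nextera XT, which does not mark strand, and read as single ends of 50 bases. The extract protocol that names Nextera XT describes sorted tumour cells, while the series' design text describes cultured cells. Which text applies to these libraries could not be settled, so the kit and the lack of strand marking are not certain. Separate cultures per library are not stated, so the spread behind the p-values may be technical. The submitters' processing notes list mm10 and GRCh38. No aligner, counter or annotation is named there. The authors deposited normalized log2 values. Undoing the log2 and subtracting the shared floor gave columns that sum to 1000000, so the values are log2(CPM + 0.0353). Reads were recovered from the fixed step of 1 read; of values up to 300 reads 100% were whole within 0.05 read.

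Groups were compared with limma 3.58.1 (R 4.3.3) on these log2 values, using trended and robust moderation. Tests were 2-sided, with Benjamini-Hochberg adjusted p-values over all 12279 genes with a mean log2 value of at least 0. A fold change on this scale understates the change of low genes. The fit was run on simulated data in which only a few of the genes were changed. That check does not cover data in which most genes differ, as here. Levels per kilobase use the exon length deposited by the authors. Positions are from GENCODE M21 on mm10. Replicate pairs of a group differed by more than counting noise (chi-square per degree of freedom 2.16 to 3.95). Alternatives were other scalings, filters, a pseudocount of 1 CPM, other moderation, library weights, voom on the recovered reads, and leaving out each library. The genes and lists were chosen with earlier results of these data known. Named are all 9 genes, Zfx, up to 3 genes per wider list with the largest differences past the threshold, and the 3 most similar profiles of a gene with a 2-fold difference. Counting intervals and zero-count limits cover counting error only.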

Additional observations from a re-analysis of the deposited data

How the results depend on the processing

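The count of passing genes among the 6 kept ones was 5 or 6 under every alternative run, with Gli3 the only one of them to lose its call. Without the filter the count was also 6, but there Gli2 (7 reads in all) passed and Gli3 did not. Gas1, Gli1, Smo, Sufu and Ptch1 kept direction and call under the 14 alternatives each. In the wider lists 58 of 68 tested genes passed. The count was 54 of 64 with the stricter filter, 61 of 80 with no filter and 57 to 61 of 68 under the others, with more lower than higher in each. Over all genes tested it was 8078 of 10470 (77.2%) with the stricter filter and 10017 of 24485 (40.9%) with no filter. Leaving out 1 library gave 8546 to 8735 over all kept genes, 5 to 6 for the members and 57 to 60 for the wider lists.

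Without dividing by exon length the Gli1 share differed by 8.37 percentage points in place of 12.9, and the ratio of Gas1 plus Boc to Ptch1 by 1.17 in place of 3.07; these are other scales by construction. Leaving out 1 library gave 12.1 to 13.9 points and 2.79 to 3.24. No paired analysis was possible because the labels carry no replicate numbers. Those used here follow the order of the samples within each group. Depth limits what can be said of Hhip, Boc, Gli2 and the ligand genes Shh and Ihh, each with at most 5 reads in a library.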
